A study of Mus musculus with 6 samples.

Results

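The proteasome genes described here are the mouse genes whose symbol begins with Psma, Psmb, Psmc, Psmd or Psme and a number, and which have a probe set assigned to no other gene. There were 45 such genes, of 19938 genes with such a probe set, each represented by its probe set with the highest mean log2 intensity. Of these, 43 encode subunits, chaperones that bear subunit numbers, or activators. They fall into the alpha ring (8 genes), the beta ring (8), the immunoproteasome (3), the ATPases of the base (6), the other subunits of the base (3), the lid (8), the chaperones of the base (3) and the activators (4). The remaining 2, Psmc3ip and Psme3ip1, match by symbol but encode binding partners and are given apart. Cells were progenitors at the pro-B and pre-B stages, sorted and studied as a mixture without prior manipulation, from BALB/c mice, an inbred strain. The old group was 24 months of age and the young group 2 months, with 3 arrays each, and the labels name no transgene or treatment in either group. Each array was made from 100 ng of amplified RNA. The titles number mouse replicates but do not say if each array came from a single animal or from several. The p-values therefore measure only the spread between these arrays, and the number of arrays limits the precision.

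The proteasome is the protease that degrades proteins marked with ubiquitin. Its core particle is a barrel of outer alpha rings, which gate the entry, and inner beta rings, of which Psmb5, Psmb6 and Psmb7 carry the proteolytic sites. The regulatory particle that caps the barrel has a base, whose ATPases unfold the substrate, and a lid, which removes ubiquitin. In lymphoid cells the interferon-inducible subunits Psmb8, Psmb9 and Psmb10 can take the place of the standard catalytic subunits and change the peptides offered to MHC class I molecules. The activators Psme1 to Psme4 are caps that open the gate without ATP.

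The old arrays differed among themselves in signal. The interquartile range of log2 intensity over the probe sets was 1.41, 1.40 and 2.44 on old replicates 1, 2 and 3 and 2.76 to 2.98 on the young arrays. As a level of background, the 95th percentile of 1375 probe sets for olfactory and vomeronasal receptors was taken, and it was 6.30, 6.41 and 5.18 on old replicates 1, 2 and 3 and 4.60 to 4.84 on the young arrays. Of 9 measured markers of B cell progenitors, 4, 3 and 8 lay above this receptor level on the old arrays and 9 on each young array. Their summed linear intensity was 2776 to 7223 in the old and 8106 to 8633 in the young group, and none was listed at 0. Of 7 myeloid markers, 2, 2 and 6 lay above it on the old arrays and 6 to 7 on the young arrays, with sums of 1830 to 6075 and 5945 to 7444. Markers of T and NK cells, plasma cells, dendritic cells and erythroid cells summed to 126 to 248 on the old and 116 to 318 on the young arrays, list by list. The part of these array differences in the results that follow was not tested. In bulk RNA, fewer cells of a type and less RNA per cell cannot be told apart.

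Most proteasome genes had lower levels on the old arrays, by much on old replicates 1 and 2 and by little on old replicate 3. Of the 43 genes, 41 had a lower mean in the old group, and the median difference, old minus young, was -2.07 on the log2 scale. The median over all genes was 0.37, and 7322 of the 19938 genes had a lower old mean. At an adjusted p under 0.05 with limma 0 of 43 passed, as did 0% of the 23410 probe sets tested. The smallest adjusted p was 0.101. At an unadjusted p under 0.05, 38 of 43 were lower and 1 was higher, where 21.9% of all probe sets were lower and 24.9% higher. All 3 old arrays lay below all 3 young arrays at 38 genes (22.9% of all probe sets) and above them at 1 (36.1%). Psme1, Psma8, Psmb10 and Psmd3 overlapped between the groups, and Psmb11 was the gene above. Relative to the young mean the median of the members was -2.94, -2.76 and -0.39 on old replicates 1, 2 and 3, and that of all genes was 0.51, 0.46 and 0.04.

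The proteasome genes are bright on the young arrays, and bright genes in general were low on the old ones. Of the 43 genes, 38 had a young mean of at least 7 on the log2 scale, with a median difference of -2.15. All 3668 genes past that level had a median of -1.72. Of them 78.4% were lower at an unadjusted p under 0.05 (limma), against 94.7% of the 38. A lower old mean was found in 3594 of the 3668 genes and in all of the 38. All 3 old arrays lay below all 3 young arrays at 71.8% of the 3668, against 94.7% of the 38. The shares of 22.9% of all probe sets and 71.8% of bright genes apply wherever genes are said below not to overlap. On old replicates 1 and 2, 10 and 11 of the 43 genes lay above the receptor level, and on old replicate 3 and each young array 41 did. Those above it on both old replicates 1 and 2 were Psma3, Psmb5, Psmb6, Psmb9, Psmb10, Psmc1 and Psme1. A further 7 were above it on 1 of them and 29 on neither, so for most members the size of the difference on these arrays is only a bound. Psma8 and Psmb11, known mainly from the testis and the thymus, lay within the receptor level on all 6 arrays.

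**Figure D1:**
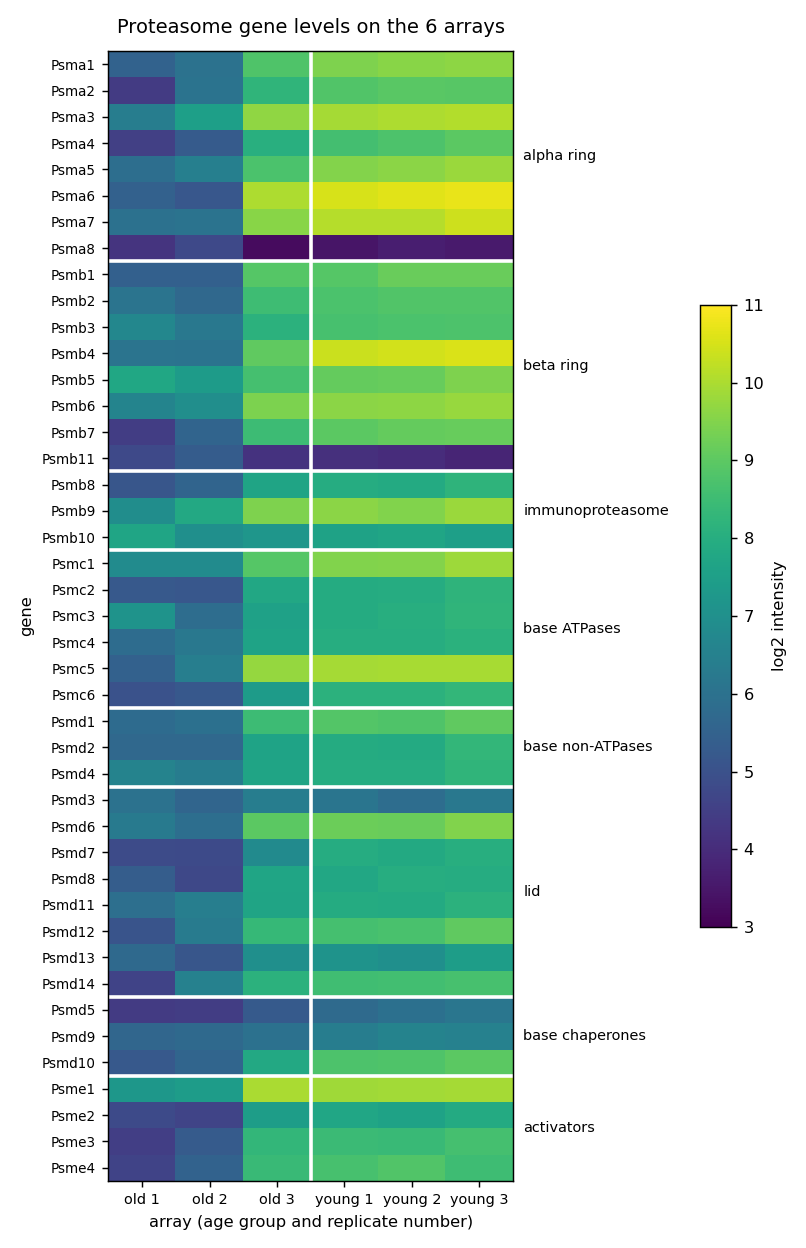
Log2 intensity of each of the 43 proteasome genes (vertical axis, grouped by subcomplex) on each of the 6 arrays (horizontal axis), with colour from dark (low) to light (high). Old replicates 1 and 2 are dark in most genes, whereas old replicate 3 resembles the young arrays, and Psmb10 and Psmd3 differ little across all 6.

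The standard catalytic subunits were all lower on each old array than on any young array. Psmb5, which cuts after hydrophobic residues, was at 7.78, 7.40 and 8.63 on old replicates 1, 2 and 3 and at 9.12, 9.14 and 9.46 on young replicates 1, 2 and 3. It was above the receptor level on all 6 arrays, with a difference of -1.30 ± 0.35 (SE, adjusted p = 0.101, limma). After quantile normalization, which gives all arrays the same spread, the difference was -0.056 (adjusted p = 0.892, limma), and by rank within its array Psmb5 was higher on old replicates 1 and 2 than on any young array. Psmb6, which cuts after acidic residues, was at 6.60, 6.95 and 9.43 against 9.61, 9.64 and 9.77, also above the receptor level on every array. Its difference was -2.01 ± 0.71 (SE), and -0.98 after quantile normalization. Psmb7, which cuts after basic residues, was at 4.44, 5.57 and 8.49 against 8.98, 9.10 and 9.13. Old replicates 1 and 2 were within the receptor level for Psmb7, and its difference of -2.90 ± 0.94 (SE) became -2.004 when values under that level were raised to it.

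Of the immunoproteasome subunits, Psmb8 and Psmb9 were lower on every old array, whereas Psmb10 overlapped between the groups. Psmb8, the counterpart of Psmb5, was at 5.14, 5.58 and 7.66 on the old arrays, against 7.96, 7.89 and 8.21 on the young. The difference was -1.89 ± 0.63 (SE, adjusted p = 0.101, limma). Old replicates 1 and 2 were within the receptor level for Psmb8, and the difference was -1.23 with values raised to that level. Psmb9, the counterpart of Psmb6, was at 6.93, 7.81 and 9.45 against 9.61, 9.50 and 9.79, a difference of -1.57 ± 0.60 (SE), or -0.43 after quantile normalization. Every old array was below every young array for both, although old replicate 3 was the nearest. Psmb10, the counterpart of Psmb7, was at 7.71, 6.999 and 7.21 against 7.59, 7.70 and 7.51. Its highest value of all was on old replicate 1, the groups overlapped, and the difference was -0.30 ± 0.25 (SE, adjusted p = 0.325, limma). After quantile normalization the difference of Psmb10 turned to 0.81, and with estimated array weights it was called lower (-0.55, adjusted p = 0.00463, limma, within a range of 0.00463 to 0.649 over the alternatives). In the values as deposited it was the member with a young mean of at least 7 that differed least between the groups, and it lay above the receptor level on all 6 arrays.

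Within each array the level of an immunoproteasome subunit was set against that of the standard subunit it replaces, as a log2 ratio, and the ratios were compared between groups by an exact permutation test, 2-sided, over 3 pairs. The ratio depends on the probes of both genes, so that only its difference between arrays is read. Psmb10 over Psmb7 was 3.26, 1.42 and -1.28 on old replicates 1, 2 and 3 and -1.39, -1.41 and -1.61 on the young arrays. The old values were higher by 2.61 in the mean, all above the young ones, at the smallest p this design allows (exact p = 0.1, adjusted 0.15). Psmb7 was within the receptor level on old replicates 1 and 2. With values raised to that level the ratio was 1.40, 0.59 and -1.28 on the old arrays and the mean difference 1.71 (exact p = 0.1, adjusted 0.15), and on old replicate 3 alone the ratio was 0.19 above the young mean. Psmb9 over Psmb6 was 0.33, 0.86 and 0.02 on the old arrays and -0.0039, -0.14 and 0.02 on the young. The mean difference was 0.45, with all old values above the young ones (exact p = 0.1, adjusted 0.15), but old replicate 3 and young replicate 3 were nearly equal. Psmb8 over Psmb5 was -2.64, -1.81 and -0.97 on the old arrays against -1.16, -1.24 and -1.25 on the young, with overlapping groups (difference -0.59, exact p = 0.4, adjusted 0.4). This last difference turned to 0.24 with old replicate 3 alone and to 0.07 with values raised to the receptor level. Psmb8, like Psmb7, was within the receptor level on old replicates 1 and 2.

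**Figure D2:**
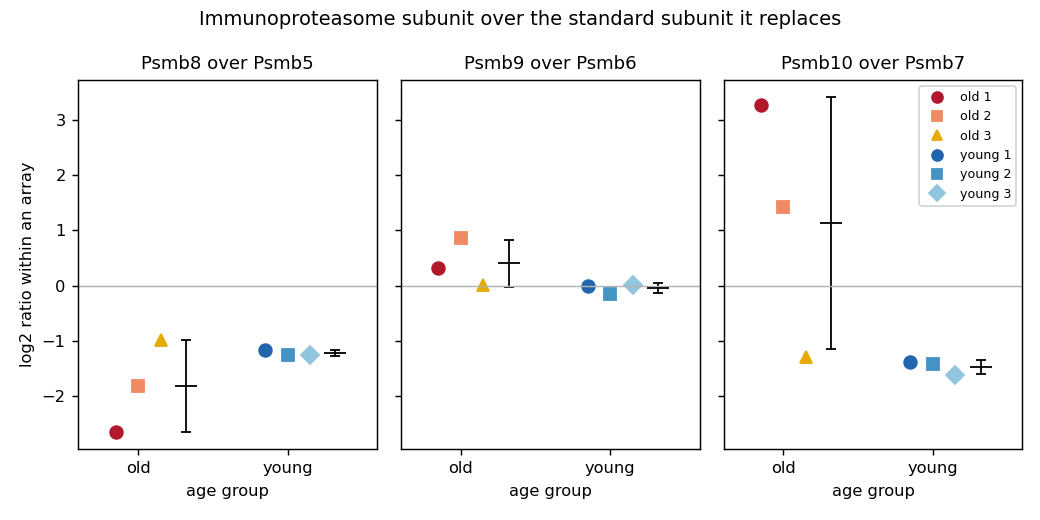
Log2 ratio within an array (vertical axis) of Psmb8 over Psmb5, Psmb9 over Psmb6 and Psmb10 over Psmb7, with 1 point per array by age group (horizontal axis) and the mean with its SD (n = 3) as a bar. The young values lie close together in each panel, and the old values spread most for Psmb10 over Psmb7, from -1.28 to 3.26.

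The promoters of the catalytic subunits are shown because these genes differed unequally in the values as deposited, and because the standard and the inducible subunits are known to be under different transcription factors. The sequences are the 250 bases before the annotated start, from RefSeq on GRCm38.p6, and lie at chr14:54617996-54618245 (minus strand, Psmb5), chr11:70525107-70525356 (plus, Psmb6), chr17:34197945-34198194 (plus, Psmb8), chr17:34187331-34187580 (minus, Psmb9) and chr8:105938393-105938642 (minus, Psmb10). Capitals mark matches, on either strand, to the 5 motifs named after the sequences.
Psmb5: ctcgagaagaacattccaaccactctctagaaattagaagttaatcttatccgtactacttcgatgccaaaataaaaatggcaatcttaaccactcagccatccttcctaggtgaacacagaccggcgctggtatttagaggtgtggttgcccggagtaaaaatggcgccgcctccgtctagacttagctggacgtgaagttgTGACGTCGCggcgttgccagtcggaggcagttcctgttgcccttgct
Psmb6: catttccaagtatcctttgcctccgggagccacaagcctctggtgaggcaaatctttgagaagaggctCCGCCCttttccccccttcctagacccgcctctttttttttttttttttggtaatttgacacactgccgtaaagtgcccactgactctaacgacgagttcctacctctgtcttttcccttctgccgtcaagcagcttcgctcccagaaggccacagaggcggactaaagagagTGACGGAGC
Psmb8: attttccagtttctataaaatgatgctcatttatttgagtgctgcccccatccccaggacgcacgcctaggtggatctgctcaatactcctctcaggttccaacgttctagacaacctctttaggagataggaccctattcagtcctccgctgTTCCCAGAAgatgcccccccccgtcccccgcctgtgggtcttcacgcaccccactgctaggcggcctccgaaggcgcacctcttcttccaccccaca
Psmb9: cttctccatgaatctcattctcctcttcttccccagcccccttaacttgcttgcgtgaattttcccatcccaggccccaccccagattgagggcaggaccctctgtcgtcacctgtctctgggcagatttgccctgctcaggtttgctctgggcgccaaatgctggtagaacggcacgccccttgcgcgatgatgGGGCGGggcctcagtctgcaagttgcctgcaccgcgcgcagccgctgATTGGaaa
Psmb10: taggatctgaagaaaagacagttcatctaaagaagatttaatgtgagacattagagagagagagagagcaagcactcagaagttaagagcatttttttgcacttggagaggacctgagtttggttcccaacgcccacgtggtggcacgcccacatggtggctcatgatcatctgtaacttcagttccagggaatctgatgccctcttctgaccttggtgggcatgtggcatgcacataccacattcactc
A window was found for 36 of the 43 genes and not for 7, Psmb7 among them. The antioxidant response element, searched as TGACNNNGC and known as the site of Nfe2l1 and Nfe2l2, matched in the windows of Psmb5 (TGACGTCGC, 39 to 47 bases before the start) and Psmb6 (TGACGGAGC, 1 to 9 bases before it). It matched in 5 of the 36 genes, or 13.9%, and in 10.2% of all 32851 windows of the same length. The other members were Psmc6, Psmd9 and Psmd12. For this and the other motifs a member counted if any window of the gene matched, whereas the share of all windows counts each window singly. The interferon gamma activated site, TTCNNNGAA, matched in the window of Psmb8 (TTCCCAGAA) and in no other member, 2.78% against 7.02% of all windows. The CCAAT box, CCAAT, matched in 14 genes (38.9% against 33.8%), among them Psmb9, where it is read as ATTGG. The GC box, GGGCGG, matched in 21 (58.3% against 32.7%), among them Psmb9 and, as CCGCCC, Psmb6. The interferon response element, GAAA repeated after 2 bases of any kind, matched in Psmb3, Psmd4 and Psmd9 (8.33% against 2.98%). No motif overlapped another in the windows shown, and that of Psmb10 held none of the 5. A match describes letters in this window and is no evidence of binding.

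The alpha ring had a median difference of -2.74 over the 6 arrays, the most negative of the 8 subcomplexes. On old replicates 1 and 2 only 1 and 2 of its 8 genes lay above the receptor level, and its median level on the young arrays was 9.50 to 9.72. Most of its differences are thus bounds that depend on the young level, which limits this ranking. Of its 8 genes 7 were lower in the old group and Psma8 was not. Psma6 was at 5.49, 5.17 and 10.02 on old replicates 1, 2 and 3 and at 10.53, 10.65 and 10.74 on the young arrays, a difference of -3.75 ± 1.22 (SE, adjusted p = 0.101, limma), the most negative of any member in the values as deposited. Its mean was 6.89 ± 2.71 (SD, n = 3) for the old arrays and 10.64 ± 0.11 (SD, n = 3) for the young ones, and with values raised to the receptor level the difference was -3.06, less negative than that of Psmb4 (-3.21). Psma5 was at 5.89, 6.45 and 8.73 against 9.53, 9.62 and 9.80 (-2.62 ± 0.69, SE). Both genes had every old array below every young one. Psma8, which replaces a ring member in germ cells, was at 4.19, 4.77 and 3.22 against 3.45, 3.69 and 3.57, all within background, and its sign depended on the scaling (0.49, or -0.06 after quantile normalization). The other ring members, Psma1, Psma2, Psma3, Psma4 and Psma7, differed by -2.14 to -3.01, and none overlapped between the groups.

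In the beta ring the median was -2.02. Psmb4, a structural subunit without a proteolytic site, was at 6.09, 6.06 and 9.04 on the old arrays, against 10.37, 10.47 and 10.54 on the young. Old replicate 3 was thus lower by more than 1 on the log2 scale as well, and the difference was -3.40 ± 0.78 (SE, adjusted p = 0.101, limma). Psmb11, the catalytic subunit of the thymoproteasome and the neighbour of Psmb5 on chromosome 14 in GRCm38.p6, was at 4.78, 5.32 and 4.17 against 4.11, 4.003 and 3.84. It was the single member with all old arrays above the young ones, by 0.77, but every value was within background and no size is read from it. Psmb1, Psmb2 and Psmb3 differed by -2.49, -2.03 and -1.71.

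The ATPases of the base had a median of -2.02, and each of the 6 was lower in the old group without overlap. Psmc6 was at 5.02, 5.20 and 7.38 on the old arrays, against 8.14, 8.16 and 8.31 on the young (-2.33 ± 0.61, SE, adjusted p = 0.101, limma), and the difference was -1.50 with values raised to the receptor level. Psmc5 was at 5.49, 6.43 and 9.72 against 9.92, 9.95 and 9.95, a difference that old replicate 3 hardly shared (-2.73 ± 1.00, SE). Psmc3 was at 7.10, 5.87 and 7.57 against 7.93, 8.02 and 8.24, the smallest difference of the ATPases (-1.22 ± 0.44, SE, or -0.36 after quantile normalization). The values of Psmc3 on old replicates 1 and 2 differed by more than 1 on the log2 scale, whereas those of Psmc6 nearly coincided.

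The remaining subunits of the base, scaffolds and ubiquitin receptors, had a median of -1.69. Psmd1, the scaffold, was at 5.79, 5.94 and 8.49 on the old arrays, against 8.87, 8.79 and 9.03 on the young (-2.16 ± 0.70, SE). Psmd4, a receptor for ubiquitin chains, was at 6.59, 6.36 and 7.69 against 7.96, 7.95 and 8.23 (-1.17 ± 0.37, SE, or -0.27 after quantile normalization). Psmd2 differed by -1.69. Each of the 3 had all old arrays below all young arrays.

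In the lid the median was -2.08, and 7 of 8 genes were lower without overlap. Psmd7, the partner of the deubiquitinase Psmd14, was at 4.82, 4.78 and 6.83 on the old arrays, against 7.96, 7.86 and 8.03 on the young (-2.47 ± 0.55, SE, adjusted p = 0.101, limma). Its unadjusted p was the smallest of the 43, and the difference was -1.44 with values raised to the receptor level. Psmd3 stood apart from the other lid genes, at 6.02, 5.61 and 6.40 against 6.10, 5.86 and 6.19. Its groups overlapped and the highest value was on old replicate 3 (difference -0.04 ± 0.27, SE, adjusted p = 0.906, limma), and the sign turned after quantile normalization (0.19). With array weights it was called lower (-0.36, adjusted p = 0.0474, limma, within a range of 0.0474 to 0.978). On old replicates 1 and 2 Psmd3 was within the receptor level. Psmd6, Psmd8, Psmd11, Psmd12, Psmd13 and Psmd14 differed by -1.22 to -2.23.

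The chaperones that assemble the base, though numbered among the subunits, had a median of -1.26. Psmd10, also called gankyrin, was at 5.22, 5.60 and 7.81 on the old arrays, against 8.76, 8.81 and 8.99 on the young (-2.64 ± 0.65, SE). Psmd5 was at 4.38, 4.45 and 5.26 against 5.76, 5.96 and 6.15 (-1.26 ± 0.30, SE). With values raised to the receptor level its difference was 0.03. That level, 6.30 and 6.41 on old replicates 1 and 2, is above every young value of Psmd5, so that step is not informative for it. Psmd9 was at 5.64, 5.74 and 5.98 against 6.40, 6.57 and 6.52 (-0.71 ± 0.21, SE). Its difference was -0.27 after that step, and the level is close to its young values too. In all 3 genes old replicate 3 was below each young array too.

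The activators had a median of -2.29, with medians of -3.47, -3.13 and -0.23 on old replicates 1, 2 and 3. Psme1, a part of the interferon-inducible cap, was at 7.23, 7.41 and 9.99 on the old arrays, against 9.87, 9.88 and 9.91 on the young (-1.68 ± 0.71, SE, adjusted p = 0.107, limma). Old replicate 3 was here the highest of the 6 arrays, and the difference was -0.53 after quantile normalization. Psme2, which forms that cap with Psme1, was at 4.81, 4.64 and 7.47 against 7.74, 7.61 and 7.90 (-2.11 ± 0.73, SE). Psme2 has a near-identical copy, Psme2b, and a probe set that the annotation gives to both was at 4.83, 5.16 and 7.51 against 7.26, 7.66 and 7.57, so that the signal of the copies cannot be parted with certainty. Psme3, the nuclear activator, was at 4.50, 5.30 and 8.29 against 8.45, 8.43 and 8.63 (-2.48 ± 0.91, SE). Psme4, an activator known from spermatids and DNA repair, was at 4.61, 5.51 and 8.42 against 8.66, 8.83 and 8.52 (-2.49 ± 0.90, SE). Psme2, Psme3 and Psme4 did not overlap between the groups, yet old replicate 3 lay within 0.29 of the young mean for each. With values raised to the receptor level their differences were -1.03, -1.50 and -1.63.

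**Figure D3:**
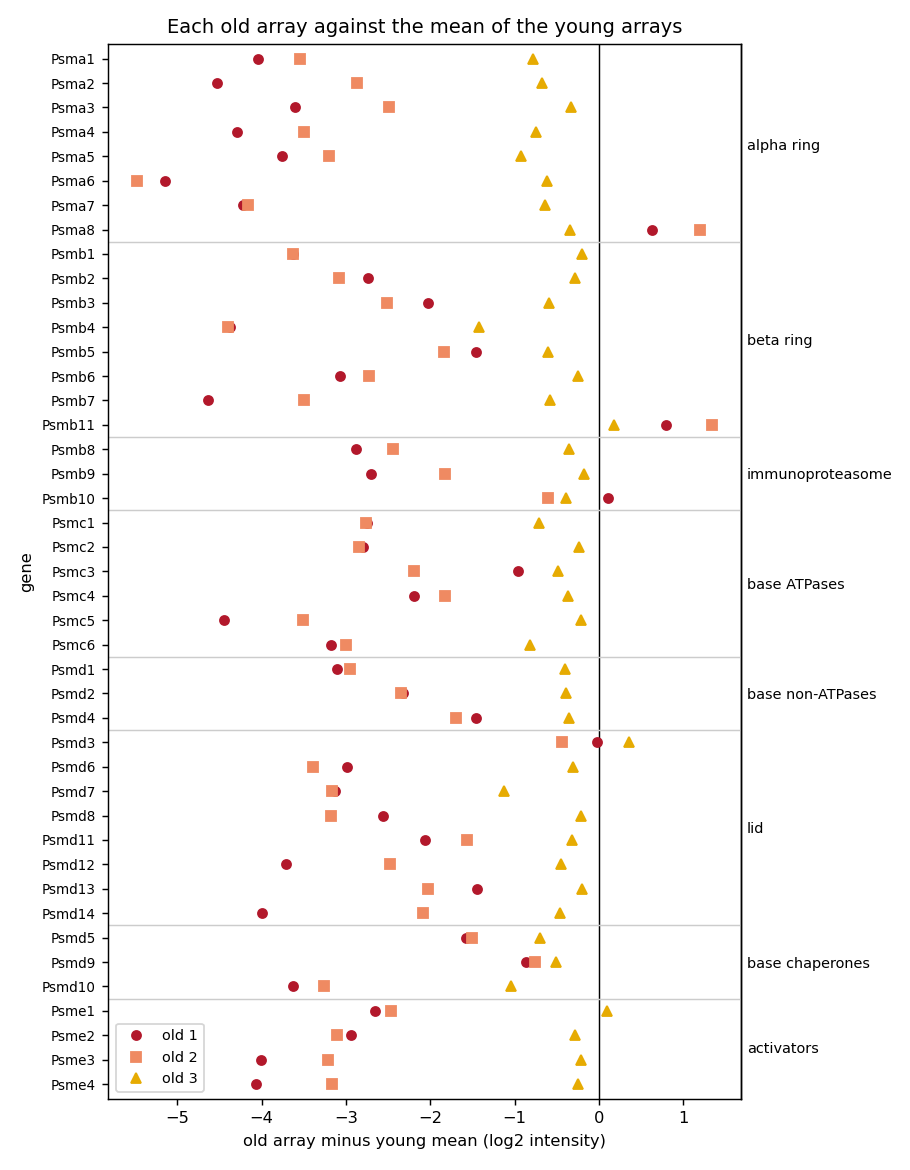
Level on each old array minus the mean of the 3 young arrays (horizontal axis, log2 intensity) for the 43 genes (vertical axis, by subcomplex), with 1 marker per old array. Old replicates 1 and 2 lie together far to the left for most genes, with medians of -2.94 and -2.76, and old replicate 3 lies near 0, with a median of -0.39.

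Across the 43 genes the levels on old replicates 1 and 2 correlated at r = 0.732, and across all genes at 0.880. Genes share the arrays and the normalization and are not independent replicates. Levels on old replicates 1 and 2 correlated with the young mean at r = 0.355 and 0.504 over 43 genes. Without Psma8 and Psmb11, within background on all arrays, r was 0.225 and 0.483. On both of these old arrays 29 of the 43 genes were within the receptor level, which limits what r can show there. On old replicate 3 r with the young mean was 0.975, or 0.955 without Psma8 and Psmb11. The young arrays correlated with each other at 0.994 to 0.997. Over all genes the values against the young mean were 0.560, 0.644 and 0.983. Without old replicate 3, 39 of 43 genes were called lower and 2 higher with limma, where 30.2% of all probe sets were lower and 52.2% higher. Psmb10 and Psmd3 were the 2 not called (adjusted p = 0.32 and 0.261, limma), and Psma8 and Psmb11, within background, the 2 called higher. Among genes with a young mean of at least 7, 95.1% were called lower in that fit, against 97.4% of the members past that level.

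**Figure D4:**
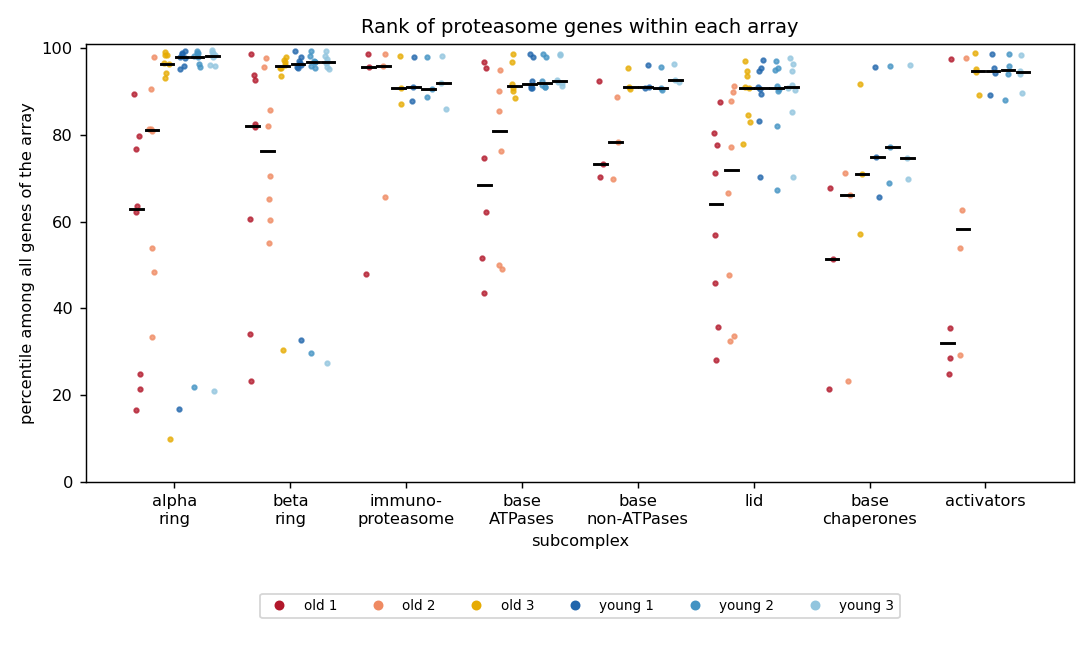
Percentile of each proteasome gene among all 19938 genes of the same array (vertical axis) by subcomplex (horizontal axis), with 1 colour per array and a black line at the median; probes differ in brightness, so a gene is compared between arrays and not with other genes. The median of the 43 genes was 67.7, 76.4 and 93.7 on old replicates 1, 2 and 3 and 95.2 to 95.6 on the young arrays.

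Ranks within an array do not depend on its overall spread, and they were read gene by gene. Psmb8 was at percentiles 90.5 to 92.1 on the young arrays. On old replicates 1 and 2 it lay within the receptor level, and its ranks there are not read. Psmb9 was at percentiles 95.8 and 98.7 on these 2 old arrays, against 97.9 to 98.3 on the young, so that it was lower on the first and higher on the second. Psmb10 was at 98.6 and 96.0, against 85.9 to 88.8, and was the immunoproteasome gene that ranked higher on both. Among the activators Psme1 was at 97.5 and 97.8, against 98.5 to 98.6. Psme2, Psme3 and Psme4 lay within the receptor level on old replicates 1 and 2, and their ranks there are not read. No test was made of these ranks.

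Old replicate 3 was nearer to the young arrays in spread than the other old arrays, but outside their range (2.44 against 2.76 to 2.98). Its receptor level was above theirs as well (5.18 against 4.60 to 4.84). The part of this in the results below was not tested. Old replicate 3 was set against the young arrays alone, on the assumption that it varies as they do. Nearly all proteasome genes were slightly lower on it. It lay below all 3 young arrays at 40 of the 43 genes (31.8% of all probe sets) and above them at 3, Psme1, Psmb11 and Psmd3 (41.7%). Bright genes in general were low on it too. Among genes with a young mean of at least 7 it lay below all young arrays at 73.2%, against 97.4% of the members past that level. With limma 13 of 43 were lower at an adjusted p under 0.05 and 0 higher, where 5.24% of all probe sets were lower and 1.76% higher. At an unadjusted p under 0.05, 24 members were lower and 0 higher (15.5% and 12% of all probe sets). Of members with a young mean of at least 7, 34.2% were called, and of all genes past that level 15.6%. These p-values compare 1 array with 3 and not the ages.

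The calls on old replicate 3 were spread unevenly over the particle, and the difference between subcomplexes was not tested. The shares of all probe sets and of bright genes given above apply here too. The subcomplexes also differed in brightness. The median level on the young arrays was 9.50 to 9.72 in the alpha ring, 8.56 to 8.63 in the activators and 7.94 to 8.08 in the lid. The part of brightness in the calls was not tested. In the alpha ring 6 of 8 genes were called and in the beta ring 3 of 8, the ATPases 2 of 6, the lid and the chaperones 1 each, and the immunoproteasome, the other base subunits and the activators 0. Unadjusted, 1 of the immunoproteasome genes, 1 of the other base subunits and 0 of the activators were lower. Psmb4 fell the most of the 13, to 9.04 from a young mean of 10.46 ± 0.08 (SD, n = 3), a 2.67-fold lower intensity (-1.42 ± 0.13, SE, adjusted p = 0.00565, limma). Psmd7 was lower by 2.17-fold (adjusted p = 0.0102, limma) and Psmd10 by 2.06-fold (0.0144). These 3 were the members more than 1 on the log2 scale below the young mean (1.12% of all probe sets). Among genes with a young mean of at least 7, 2.48% lay that far below, against 7.89% of the members past that level. The other calls ranged from -0.58 to -0.92 and were, with the genes outside the naming rule chosen after their values were seen, Psma1, Psma2, Psma4, Psma5, Psma6, Psma7, Psmb3, Psmb7, Psmc1 and Psmc6. Psma7 was nearest to the threshold (adjusted p = 0.0499, limma). Just outside it were Psmd5 (-0.70 ± 0.17, SE, adjusted p = 0.0517), Psmd9 (-0.51 ± 0.13, SE, 0.0601) and Psmb5 (-0.60 ± 0.17, SE, 0.0707, limma).

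The number called on old replicate 3 depended on single young arrays. It was 2 without young replicate 1, where 0.589% of all probe sets were called lower, 5 without young replicate 2 (3.11%) and 18 without young replicate 3 (10.7%). After quantile normalization 7 members were called (3.28% of all probe sets), 6 of them among the 13. After centring each array on its median 18 were called (10.4%), with all 13 among them. The median difference of the 43 genes on this array was -0.39, -0.21 after quantile normalization and -0.52 after centring.

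**Figure D5:**
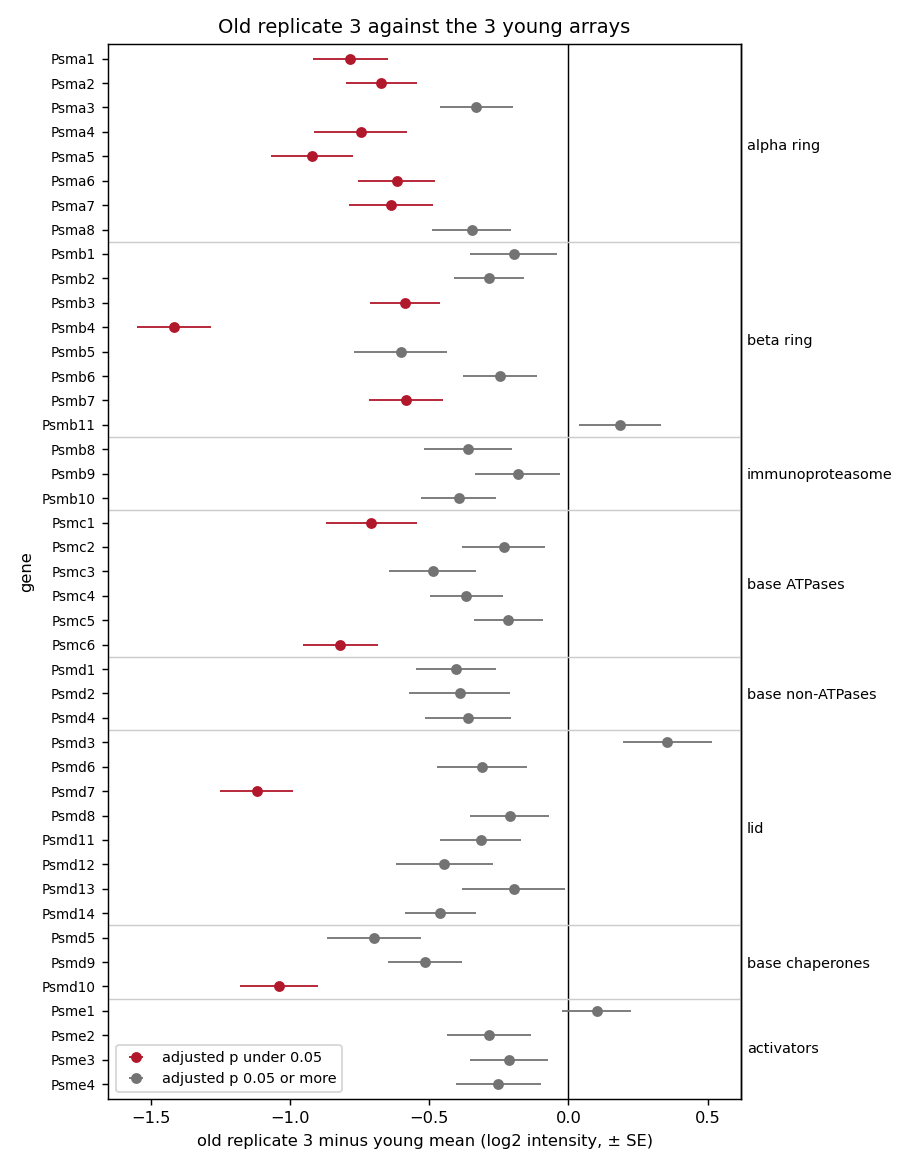
Level on old replicate 3 minus the mean of the 3 young arrays (horizontal axis, log2 intensity, with the SE from limma) for the 43 genes (vertical axis, by subcomplex), in red at an adjusted p under 0.05. Psmb4, Psmd7 and Psmd10 lie below -1, and 40 of 43 genes lie below 0. So do 43.6% of all probe sets and 83.9% of genes with a young mean of at least 7.

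Where a gene had several probe sets, they moved the same way. Psma3 had 3 probe sets and Psma5, Psmb3, Psmc1 and Psmd2 had 2 each, and every one was lower in the old group. The binding partner Psmc3ip, a recombination factor of germ cells, was at 5.72, 5.52 and 6.89 on the old arrays, against 7.23, 6.78 and 7.41 on the young, with overlapping groups. Psme3ip1 differed little (7.47, 7.66 and 7.21 against 7.32, 7.26 and 7.37).

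Factors that assemble or inhibit the proteasome had lower old means as well, in 7 of 7 genes. So did 7322 of all 19938 genes, and 3594 of the 3668 genes with a young mean of at least 7. Of 7 measured genes of that list 0 passed the threshold with limma and 5 were lower at an unadjusted p under 0.05, with a median of -1.44. Of all probe sets 21.9% were lower at that level, and of genes with a young mean of at least 7, 78.4%. Pomp, the chaperone that matures the core particle, was at 4.70, 4.33 and 9.72 on the old arrays, against 10.01, 10.02 and 10.15 on the young (-3.81 ± 1.35, SE). Psmg2, an alpha ring assembly chaperone, was at 5.28, 5.15 and 5.42 against 6.74, 6.56 and 6.86 (-1.44 ± 0.21, SE). It was low on old replicate 3 too (-1.30 from the young mean, adjusted p = 0.0101 for that array, limma). Its partner Psmg1 differed by -1.69, and Ecpas, which holds core and cap together, by -2.27.

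Subunits not named Psm and the deubiquitinases and ligases bound to the particle had a median of -1.80 over 5 genes. With limma 0 were called and 3 were lower at an unadjusted p under 0.05. The shares were 21.9% of all probe sets and 78.4% of genes with a young mean of at least 7. Usp14, a deubiquitinase of the base, was at 5.03, 4.84 and 6.26 on the old arrays, against 7.21, 7.30 and 7.81 on the young (-2.06 ± 0.42, SE). Ube3c, Uchl5 and Sem1 differed by -1.54, -1.71 and -1.80, and Sem1 on old replicate 3 was no lower than on the young arrays. Of 8 genes for ubiquitin activation and shuttling, 0 were called and 4 were lower at an unadjusted p under 0.05, where the same shares apply. Among them the segregase Vcp differed by -1.93 and its cofactor Ufd1 by -2.66, the activating enzyme Uba6 by -1.69 and the shuttle Rad23b by -1.97.

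Of 11 measured genes for regulators of proteasome transcription 0 were called, and 3 were lower and 2 higher at an unadjusted p under 0.05, against 21.9% and 24.9% of all probe sets. Nlrc5, the activator of MHC class I and of immunoproteasome genes, was at 10.20, 10.41 and 9.32 on the old arrays, against 8.09, 8.12 and 7.85 on the young (1.96 ± 0.32, SE, adjusted p = 0.101, limma), by the brightest of its 19 probe sets. All 3 old arrays lay above the young ones for this probe set. The 19 probe sets differed, 15 being higher and 4 lower in the old group, with a median of 0.43. Of the 19, 7 lay above the receptor level on all 6 arrays, and each of these had a higher old mean, by 0.32 to 1.96. The 4 lower ones were within that level on every old array. The probe sets were not tested together, and no change of the gene as a whole is read from them. Mafk was the other gene higher at an unadjusted p under 0.05. Ngly1, which activates Nfe2l1 by removing its glycans, differed by -1.76, and Nfya and Nfyb, which bind the CCAAT box, by -1.49 and -2.39. Of 7 genes for peptide loading 0 were called, with 2 lower and 0 higher at an unadjusted p under 0.05, where the same shares of all probe sets apply. Erap1, which trims peptides, differed by -1.54, Pdia3 by -2.36 and Calr by -1.55. Tap1, the transporter gene that lies between Psmb9 and Psmb8 on chromosome 17 in GRCm38.p6, was at 5.23, 5.17 and 6.31 against 6.43, 6.12 and 6.52, with overlapping groups (-0.79 ± 0.35, SE).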

How the data were processed

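Sorted B cell progenitors from old and young mice were measured on 6 arrays, 3 per age group, and grouped by the age in the labels. The deposited table holds linear intensities. RMA made them, per the submitters' processing notes, and its settings and the genome build are not stated in these sources. Log2 of the deposited intensity was taken first. Of 28940 probe sets 21789 carried 1 gene symbol, 1621 several and 5530 none. A fit of the 23410 with any symbol used limma 3.58.1 in R 4.3.3, with age as the only factor, a 2-sided moderated test and Benjamini-Hochberg adjustment over all of them, and calls were made at an adjusted p under 0.05. Python 3.11.15 with pandas 2.3.3, numpy 2.4.6 and matplotlib 3.10.9 did the rest. The code was tested on simulated data. All simulated arrays had the spread of the young arrays, so the wider spread among the old arrays was not covered.

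The members and the gene lists were chosen with earlier results of these data known. Values on every array are given for catalytic subunits and activators, and, elsewhere, for the member with the smallest unadjusted p and the most negative and most positive difference of each subcomplex, and for up to 4 genes with the smallest unadjusted p of each related list (some by their difference alone). The genes for which other values are printed were chosen after their values were seen.

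Old and young arrays carry the same replicate numbers in their titles. Deviations from the group means correlated between same-numbered arrays at 0.157, 0.150 and 0.279, all over the limit of 0.1, so a pairing by number was allowed for in a separate fit. Old replicate 1 correlated with young replicate 2 at 0.153 and old replicate 2 with young replicate 1 at 0.141, so these numbers are not told apart.

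Alternatives were centring, quantile normalization, dropping the dimmest 30 percent of probe sets, testing also those with no gene, the block, trended robust moderation, array weights, leaving out each array, old replicate 3 alone, the mean of a gene's probe sets, raising values to the receptor level, and an adjusted p under 0.1.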

Additional observations from a re-analysis of the deposited data

How the results depend on the processing

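The count of members called rested on old replicate 3. Lower calls numbered 0 of 43 in the comparison of all arrays, and leaving out single arrays gave 0 to 39 lower and 0 to 2 higher, all of these without old replicate 3 (30.2% of all probe sets lower and 52.2% higher). Estimated array weights gave 41 lower and 2 higher (31.4% and 54.0% of all probe sets), values raised to the receptor level 36 and 2 (13.4% and 56.4%), and old replicate 3 alone 13 lower (5.24%). Raising values lifts the old arrays most, since their receptor level is higher. The fit with the replicate number as a block called 0 members lower and 0 higher, and the block changed no other call. The other alternatives gave 0.

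Old replicate 3 alone gave a median of -0.39 for all members, -0.66 for the alpha ring, -0.43 for the beta ring, -0.36 for the immunoproteasome, -0.43 for the ATPases, -0.39 for the other base subunits, -0.31 for the lid, -0.70 for the chaperones and -0.23 for the activators. The immunoproteasome median was -0.43 after quantile normalization and -2.26 to -1.001 when single arrays were left out, and the chaperone median was -0.27 with values raised. These medians kept their sign throughout. For old replicate 3 alone, the count lower was 2 to 18 when single young arrays were left out, with 2 and 5 without young replicates 1 and 2, 7 after quantile normalization and 22 with values raised (13.1% of all probe sets), and the median was -0.42 to -0.33 when single young arrays were left out, -0.52 after centring and -0.21 after quantile normalization.

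Single differences that turned sign were those of Psmb10 (0.81), Psma8 (-0.059) and Psmd3 (0.19) after quantile normalization, Psmd3 without old replicate 2 (0.16) and without young replicate 3 (0.03), Psme1 (0.10), Psma8 (-0.35) and Psmd3 (0.36) with old replicate 3 alone, and Psmd3 (0.32) and Psmd5 (0.034) with values raised. The ratio of Psmb8 over Psmb5 turned to 0.24 and 0.070 under the last 2 settings. For Psmd3 and Psmd5 the receptor level on old replicates 1 and 2 was above every young value, so their turns with values raised rest on that level. The cause of the other turns was not tested.

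The related lists, in the order assembly, bound subunits, ubiquitin and shuttles, regulators and peptide loading, hold 7, 5, 8, 11 and 7 measured genes. With array weights 6, 5, 7, 11 and 5 were called in either direction (31.4% of all probe sets lower, 54.0% higher). Leaving out single arrays gave 0 to 6, 0 to 5, 0 to 7, 0 to 9 and 0 to 5 (without old replicate 3, 30.2% lower and 52.2% higher). Values raised gave 3, 5, 3, 4 and 1 (13.4% and 56.4%). In these 3 settings most of all probe sets were thus called in 1 direction or the other. With old replicate 3 alone, assembly factors gave 2, bound subunits 1 and regulators 1. On old replicates 1 and 2 signal over background limits the size of most differences, as 10 and 11 of 43 members lay above the receptor level.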
